A study of Mus musculus with 47 samples.

Results

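The insulin-like growth factor (IGF) system was described here by 10 genes, taken by name from the 22800 gene symbols of the deposited read count table: the ligands Igf1 and Igf2, the receptors Igf1r and Igf2r, and the binding proteins Igfbp2 to Igfbp7. Igfbp4 was chosen because it had no read in the main cells of the auditory cortex (AC), so its difference between AC and CA3 is given as a description. The neurons were NPY-positive cells of acute brain slices from male and female mice aged 3 to 8 weeks, and no treatment is named for any cell. All groups carried the same reporter, a green fluorescent protein under control of the neuropeptide Y gene, named NPY-hrGFP in the methods of the study and NPY-EGFP in its deposited design. AC cells lay in superficial layers of coronal slices, and CA3 cells lay in the distal dendritic layer of horizontal slices. The methods give the horizontal plane for hippocampal recordings in general, which covers CA1, and the sources used here name no layer for the CA1 cells. Cytosol of each neuron was drawn into a patch pipette and sequenced (Patch-RNAseq), so each sample is 1 cell.

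Of 47 cells in the table, 26 were used, namely 10 of AC, 13 of CA3 and 3 of CA1. These are the listed AC and CA3 cells that had been matched to the heat maps of the study in an earlier examination, and all CA1 cells. The match, which found only part of the CA3 cells that the study kept, was not repeated here. No source used here ties a cell to 1 of the 8 mice, so the cells of a region cannot be taken as replicates of it and no p-value is given. The slice plane differs between AC and the hippocampal regions, and the parts of plane and region cannot be told apart. The listed AC cells held 1715012 to 6265431 reads on 3163 to 6288 genes, the CA3 cells 2229519 to 7949918 reads on 3679 to 8149 genes, and the CA1 cells 601781 to 3202430 reads on 4367 to 6095 genes. Gad1 and Gad2, which encode the enzymes of GABA synthesis, and Npy itself were read in all 26 cells. RNA of glial genes was present too. Of 8 astrocyte genes 7 were read in AC, 4 in CA3 and 6 in CA1, and their sum per cell ranged from 0.303 to 3030 CPM (reads per 1000000 reads on genes) in AC, 0 to 660 in CA3 and 155 to 1683 in CA1. Of 7 microglia genes 6 were read in AC, 6 in CA3 and 4 in CA1, with sums of 0 to 4365, 0 to 2161 and 0 to 251 CPM. Of 7 oligodendrocyte genes 2, 4 and 3 were read, with sums of 0 to 367, 0 to 955 and 0 to 354 CPM. Of these lists Aqp4, Tmem119, Mog, Cldn11 and Opalin were at 0 in all 26 cells, while other markers such as Gfap, Aldh1l1, Csf1r and P2ry12 were read in some AC cells. Of the 21 columns not used, 14 had no read on Gad1, Gad2 or Npy, among them 4 labelled AC, 7 labelled NPY-positive in CA3 and both of the dentate gyrus, which goes against their labels. These AC and CA3 columns are part of the values given below for all labelled cells.

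IGF1 and IGF2 are secreted peptides that act mainly through the receptor tyrosine kinase IGF1R, which signals through insulin receptor substrates to the PI3K, Akt and mTOR kinases and to the Ras and ERK kinases. IGF2R binds and removes IGF2 and also sorts lysosomal enzymes. The binding proteins are secreted as well, hold IGFs outside the cell and release them again, often after cleavage by proteases. In the forebrain, IGF1 is made by microglia and by sets of GABAergic interneurons, IGF2 mainly by vessels, meninges and choroid plexus, and IGFBP2 by astrocytes.

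The upstream sequences of Igfbp4 and Igfbp2 are shown, since these were the 2 genes of the system with a mean level at least 2-fold lower in AC than in CA3, as scaled here. Each run holds the 250 bases before the annotated start (RefSeq, GRCm38.p6, plus strand, 5′ to 3′). Igfbp4 is at chr11:99040994-99041243 and Igfbp2 at chr1:72824230-72824479, and neither run holds a base of an annotated exon. Capitals mark TATAAA, the core of the TATA box, in Igfbp4 and GGGCGG, the core of the GC box, in Igfbp2.
Igfbp4: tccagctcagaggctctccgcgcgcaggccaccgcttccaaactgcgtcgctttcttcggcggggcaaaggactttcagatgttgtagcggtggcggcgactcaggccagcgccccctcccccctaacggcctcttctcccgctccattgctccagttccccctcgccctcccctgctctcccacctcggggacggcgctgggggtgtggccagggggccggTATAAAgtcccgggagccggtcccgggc
Igfbp2: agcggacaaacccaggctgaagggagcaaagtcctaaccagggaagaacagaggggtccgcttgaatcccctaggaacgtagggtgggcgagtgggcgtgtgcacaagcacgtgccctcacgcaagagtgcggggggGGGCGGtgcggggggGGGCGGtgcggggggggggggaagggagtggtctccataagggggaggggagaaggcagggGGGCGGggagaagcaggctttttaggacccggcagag
TATAAA stood 28 to 23 bases before the start of Igfbp4. GGGCGG stood 3 times before the shown start of Igfbp2, at 113 to 108, 98 to 93 and 37 to 32 bases. RefSeq gives Igfbp2 another start, whose window (chr1:72825137-72825386) overlaps an annotated exon by 65 bases, holds no GGGCGG and is 56.4% GC. Both motifs and TAATTA, the core bound by many homeodomain factors, were searched on both strands in the same window of 32851 RefSeq promoters. TATAAA was found in 12.4% of them, GGGCGG in 32.7% and TAATTA in 4.84%. The 10 genes had 14 such promoters, of which 2 held TATAAA, 6 held GGGCGG and 0 held TAATTA. GC content was 69.2% for Igfbp4 and 67.2% for the shown window of Igfbp2, against a median of 52.4% over all promoters.

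Across the 26 cells the IGF system was read sparsely and differently from cell to cell. A cell held at least 10 reads on 0 to 2 of the 10 genes in AC (median 1.5), on 0 to 3 in CA3 (median 1) and on 0 to 1 in CA1 (median 0). In AC the gene read in the most cells was Igf1, in CA3 it was Igfbp4, and in CA1 it was Igfbp3.

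**Figure D1:**
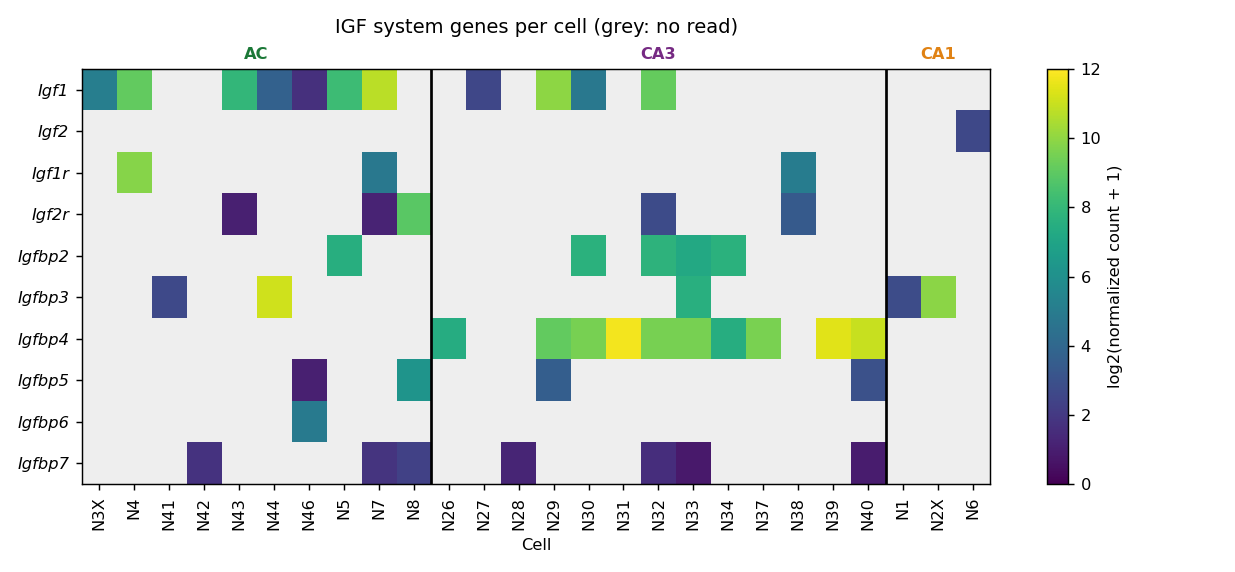
Level of each IGF system gene (rows) in each listed cell (columns, by region), as log2(normalized count + 1) on the colour scale, with grey for no read. Igfbp4 is filled in 10 of 13 CA3 cells and in 0 AC and 0 CA1 cells, Igf1 is filled in 7 of 10 AC cells, and most other rows are filled in 1 to 4 cells of a region.

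Igf1 (chr10:87858265-87937042 on the GRCm38 build, plus strand) encodes the ligand IGF1. It was read in 7 of 10 AC cells, or 70.0% of them (exact Clopper-Pearson 95% interval 34.8 to 93.3%), with 1355 reads in N7, 292 in N4, 233 in N43, 186 in N5, 45 in N3X, 11 in N44 and 2 in N46. AC cells N41, N42 and N8 had none. In CA3 it was read in 4 of 13 cells, or 30.8% (9.09 to 61.4%), with 984 reads in N29, 590 in N32, 21 in N30 and 3 in N27. None of the 3 CA1 cells had a read, which allows a share of up to 70.8%. The reads per cell of AC and CA3 overlapped over most of their range.

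Over all cells of a region together, Igf1 stood at 62.4 CPM (exact Poisson 95% interval 59.7 to 65.1) in AC and at 32.7 CPM (31.1 to 34.4) in CA3, 1.91-fold apart. The Poisson intervals cover the counting of reads only, and the reads are amplified and carry no molecular identifiers. The Clopper-Pearson intervals cover the counting of cells only and take cells as independent draws, which cells of the same mouse are not. Without N7 the AC value was 24.2 CPM, and without N29 the CA3 value was 13.4 CPM. In CA1 the 0 reads set a limit of 0.596 CPM (3 reads over the region). This is at least 105-fold under the AC sum and at least 54.9-fold under the CA3 sum. These folds compare reads of the cells used. They do not bound the region, since cells of AC and CA3 also had 0 and CA1 has only 3 cells. The level, which is log2(normalized count + 1) averaged over cells, was 4.65 ± 4.16 (SD over 10 cells) in AC and 2.03 ± 3.63 (13 cells) in CA3. The difference of 2.62 was smaller than either SD and ranged from 1.94 without N7 to 3.28 without N29. It was 1.22 over all labelled cells, where 7 of 19 AC and 4 of 21 CA3 cells had a read.

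Igf1 is also a product of microglia, so the summed CPM of 7 microglia genes is given beside it. The AC cell with the most Igf1 reads, N7, had 0 CPM on these genes, N43 had 0 and the CA3 cell N29 had 0.947. The 3 cells with the highest microglia sums, N42 (4365 CPM), N46 (2740 CPM) and N27 (2161 CPM), had 0, 2 and 3 Igf1 reads. N4, N5 and N32 held both, with microglia sums of 669, 409 and 443 CPM. The antisense gene Igf1os overlaps Igf1, and since the library kit does not mark strand, reads of the 2 genes cannot be told apart.

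Igf2 (chr7:142650766-142666816, minus strand), the other ligand, had no read in the AC and CA3 cells, which sets limits of 0.0881 CPM in AC and 0.0614 CPM in CA3. Its only reads among the listed cells were 2 in the CA1 cell N6. At this depth Igf2 was not detectable in AC and CA3 neurons, and no fold is given between values at or under the limit.

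Igf1r (chr7:67952827-68233668, plus strand) encodes the receptor through which both ligands signal. In AC it had 472 reads in N4 and 21 in N7, in CA3 it had 36 in N38, and in CA1 it had none. The sums were 14.5 CPM (13.2 to 15.8) in AC and 0.737 CPM (0.516 to 1.02) in CA3, 19.6-fold apart. N4 alone carried this, and without it the AC value was 0.649 CPM. The difference in mean level of 1.07 was 0.15 without N4. N4 and N7 also held Igf1, while the CA3 cell N38 did not.

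A further AC column, N4X, was taken as another library of the cell N4 and set aside. No label ties them, and the basis is a correlation alone. The levels of all genes in this pair correlated at 0.995 (Pearson, log2 of reads plus 1, across genes), while none of the 399 remaining column pairs within AC or within CA3 exceeded 0.724. Igf1r stood at 275 CPM in N4 and 277 CPM in N4X, and Igf1 at 170 and 163 CPM. The 2 columns thus had close values for both genes. N4 also had the highest astrocyte sum of the listed cells, 3030 CPM over 8 genes, and the part of this RNA in its Igf1r reads was not tested.

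Igf2r (chr17:12682406-12769664, minus strand), the clearance receptor for IGF2, had 862 reads in the AC cell N8, 1 each in N43 and N7, 11 in the CA3 cell N38 and 6 in N32. CA1 had none. The sums were 25.4 CPM (23.7 to 27.1) in AC and 0.348 CPM (0.203 to 0.557) in CA3, 72.9-fold apart, but the AC value was 0.0720 CPM without N8. The difference in mean level was 0.64, turned to -0.23 without N8, and was -1.05 over all labelled cells, where 3 of 19 AC and 7 of 21 CA3 cells had a read. No direction is therefore given for Igf2r. The antisense transcript Airn overlaps it.

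Igfbp4 (ENSMUSG00000017493, chr11:99041244-99054392, plus strand) encodes a secreted binding protein that inhibits IGF action until the protease PAPP-A cleaves it. Among the CA3 cells it had 7265 reads in N39, 3554 in N31, 2412 in N40, 966 in N37, 963 in N33, 780 in N32, 586 in N30, 561 in N29, 283 in N34 and 111 in N26. The CA3 cells N27, N28 and N38 had none. It had no read in any of the 10 AC cells, for which it was chosen, and none in the 3 CA1 cells, which the choice did not use. The CA3 values thus fell into 10 cells with at least 111 reads and 3 cells with none.

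In CA3 76.9% of cells (46.2 to 95%) had a read, and the same 10 cells remained at a limit of 10 reads. The count was also 10 at an equal depth of 601000 reads per cell. In the cells with a read Igfbp4 ranged from 49.8 to 988 CPM with a median of 237. Summed over the region it stood at 358 CPM (353 to 363), or 250 CPM without N39. The 0 reads allow a share of up to 30.8% of cells in AC and up to 70.8% in CA1. The AC sum was at least 4061-fold lower than the CA3 sum, and the CA1 sum at least 600-fold lower. These folds compare reads of the cells used and do not bound the regions, since some CA3 cells also had 0. The mean level in CA3 was 7.43 ± 4.42 (SD over 13 cells) with a median of 9.52, and the AC minus CA3 difference of -7.43 lay between -8.05 and -7.06 when any 1 cell was left out. The AC cells were at 0 by the choice of the gene, so only leaving out a CA3 cell could move this difference.

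**Figure D2:**
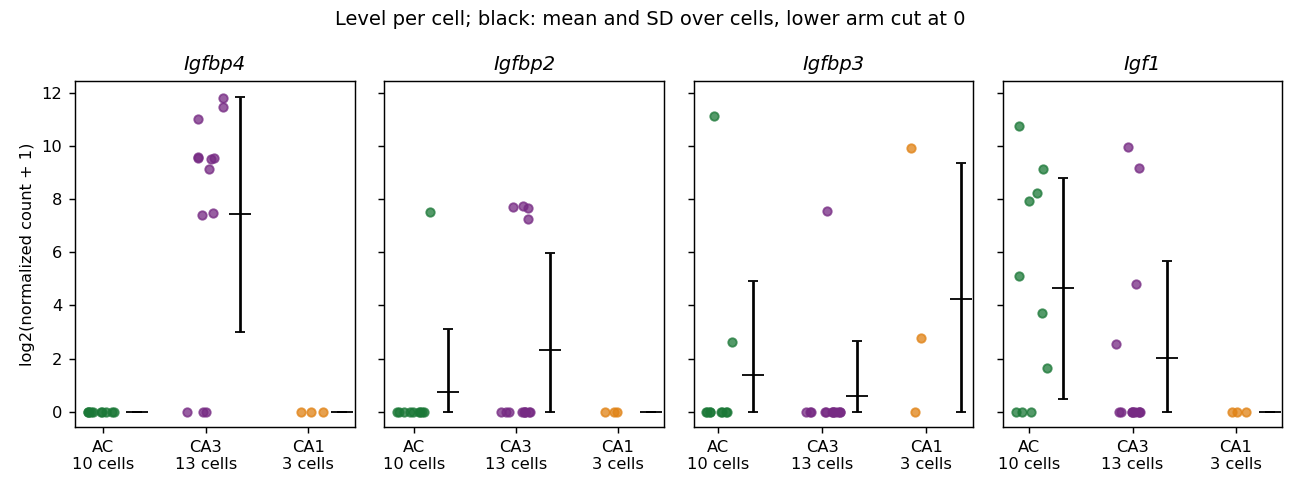
Level per cell, as log2(normalized count + 1), of Igfbp4, Igfbp2, Igfbp3 and Igf1 in 10 AC, 13 CA3 and 3 CA1 cells (points), with black bars for the mean and SD over cells, cut at 0. Igfbp4 is at 0 in all AC and CA1 cells and in the CA3 cells N27, N28 and N38, and reaches 11.81 in CA3. Each of the other 3 genes has cells with and without a read in both AC and CA3.

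All labelled cells gave a less complete contrast for Igfbp4. It was read in 10 of 21 CA3 and 1 of 19 AC cells, and the difference in mean level was -4.11. The AC cell was N45, with 1317 reads (250 CPM). N45 also had 1302 reads on Lhx6, a transcription factor gene of interneurons from the medial ganglionic eminence, while the 10 listed AC cells had none. In contrast, N36, labelled CA3 and not among the listed cells, had 4528 Lhx6 reads and 0 Igfbp4 reads. Among the CA3 cells 12 of 13 had Lhx6 reads, and 9 of these 12 had Igfbp4 reads. The match was not complete in either direction, since N29 had 561 Igfbp4 reads and 0 Lhx6 reads, and N28 had 824 Lhx6 reads and 0 Igfbp4 reads. N27 and N38, without Igfbp4, had 2 Lhx6 reads each.

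The genes whose level was most like that of Igfbp4 over the 23 AC and CA3 cells were Sh2d1a (Spearman's rho 0.91), Hs3st1 (0.82), Nrip3 (0.81), Tusc3 (0.77) and Trim62 (0.77), among the 5964 genes read in 10 or more of them. Lhx6 stood at 0.72. The 23 cells come from 2 regions, with Igfbp4 at 0 in all 10 of AC, and differ in depth, and the number of genes detected per cell stood at 0.44. Within the 13 CA3 cells alone the order was Fdft1 (0.91), Sh2d1a (0.90), Mlf2 (0.89), Ttyh1 (0.89) and Syt13 (0.88), among 2891 genes, with Lhx6 at 0.27 and the number of genes detected at -0.04. Sh2d1a, which encodes an adaptor protein known from lymphocytes, was the only gene in both sets of 5. It had 105 reads in 2 AC cells and 9674 reads in 11 CA3 cells. The correlations are descriptions over cells that are not independent samples.

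Igfbp2 (chr1:72824503-72852474, plus strand), a binding protein that is abundant in astrocytes, was read in 4 CA3 cells, with 324 reads in N34, 220 in N32, 197 in N33 and 160 in N30, and in 1 AC cell, N5, with 112. All other AC and CA3 cells and the 3 CA1 cells had none. The cells with a read lay close together, at 50.7 to 70.3 CPM, and the AC value of 59.2 CPM fell within this range. The regions thus differed in the share of cells, 1 of 10 (0.253 to 44.5%) in AC and 4 of 13 (9.09 to 61.4%) in CA3, with intervals that overlap. Summed, Igfbp2 stood at 3.29 CPM (2.71 to 3.96) in AC and 18.4 CPM (17.3 to 19.7) in CA3, 5.61-fold apart. The difference in mean level of -1.58 was smaller than the SDs of 2.37 and 3.65, and it lay between -2.33 and -1.13 when any 1 cell was left out. It no longer reached 2-fold with a pseudocount of 10 (-0.91) or after subtraction of the median of all genes (-0.68).

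The 5 listed cells with Igfbp2 reads had astrocyte sums of 0 to 353 CPM, and N4, with 3030 CPM, had no Igfbp2 read. Outside the listed cells 6 columns, 4 labelled AC or CA3 and 2 of the dentate gyrus, had 855 to 3820 CPM of Igfbp2 (median 1190). These 6 had astrocyte sums of 31129 to 38165 CPM and are among those without a read on Gad1, Gad2 and Npy. The other 36 columns had no Igfbp2 read and astrocyte sums of 0 to 3050 CPM.

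**Figure D3:**
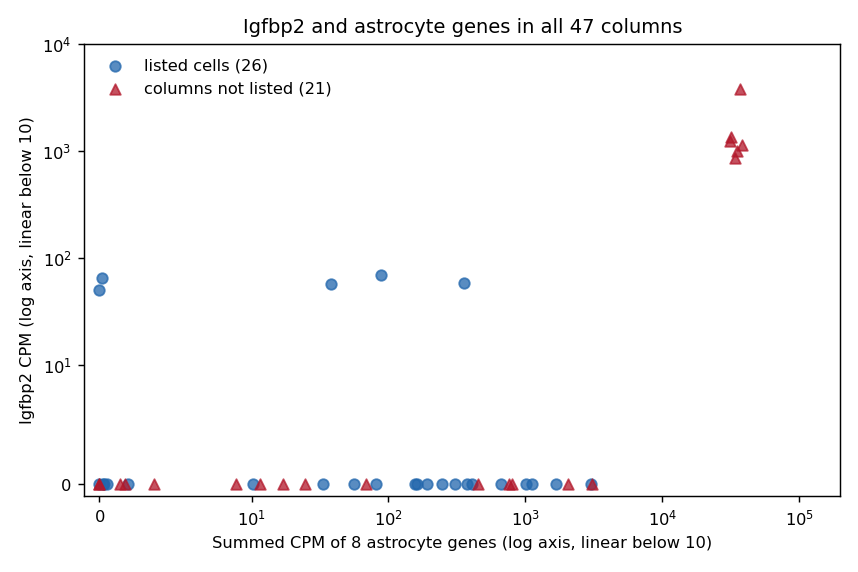
Igfbp2 (CPM) against the summed CPM of 8 astrocyte genes in all 47 columns, both on log axes that are linear below 10, with circles for the 26 listed cells and triangles for the other 21. The 6 columns at upper right hold 855 to 3820 CPM of Igfbp2, the 5 listed cells with Igfbp2 hold 50.7 to 70.3 CPM, and the other 36 columns lie at 0.

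Igfbp3 (chr11:7206086-7213923, minus strand), the main carrier of IGFs in blood, was high in 1 cell of each region. It had 2054 reads (623 CPM) in the AC cell N44, 246 (63.4 CPM) in the CA3 cell N33 and 904 (282 CPM) in the CA1 cell N2X. The only other reads among the listed cells were 5 in the AC cell N41 and 1 in the CA1 cell N1. The sums were 60.5 CPM (57.9 to 63.1) in AC, 5.03 CPM (4.43 to 5.71) in CA3 and 180 CPM (168 to 192) in CA1. Without the leading cell they were 0.163, 0 and 0.546 CPM. CA1 minus CA3 was 3.65 in mean level and 0.81 without N2X, CA1 minus AC was 2.86 and 0.01 without N2X, and AC minus CA3 was 0.79, -0.29 without N44 and -0.10 over all labelled cells. On 8 pericyte and fibroblast genes N2X had 115 CPM, and N44 and N33 had 0, and their part in the Igfbp3 reads was not tested. The adjacent gene Igfbp1 lies tail to tail with Igfbp3 on the opposite strand, 3539 bp away. It had reads in 2 listed cells, 456 in N2X, which also had Igfbp3, and 426 in N4, which did not.

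Igfbp5 (chr1:72857932-72874884, minus strand) binds IGFs and matrix proteins and lies tail to tail with Igfbp2 at a distance of 5457 bp. It had 130 reads in the AC cell N8, 1 in N46, 11 in the CA3 cell N29 and 8 in N40, and none in CA1. No listed cell had reads on both neighbours. The sums were 3.85 CPM (3.22 to 4.56) in AC and 0.389 CPM (0.234 to 0.607) in CA3, 9.89-fold apart, and AC stood at 0.0360 CPM without N8. The difference in mean level of 0.22 turned to -0.39 without N8.

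Igfbp6 (chr15:102144362-102149511, plus strand), which prefers IGF2, was read in 1 listed cell, N46 of AC, with 27 reads. This put the AC sum at 0.793 CPM (0.523 to 1.15) and the CA3 sum, with 0 reads, at least 12.9-fold lower, through that 1 cell. Igfbp7 (chr5:77349240-77408041, minus strand), a relative with low affinity for IGFs that is known from blood vessels, had 7 reads in N8, 2 in N42 and 2 in N7 in AC, and 1 or 2 in each of the CA3 cells N28, N32, N33 and N40. No listed cell reached 10 reads. Of 6 endothelial genes Pecam1 was read in each region, with at most 1.17 CPM in an AC cell, 33.7 in a CA3 cell (N34) and 2.44 in a CA1 cell, while Cldn5, Flt1, Kdr, Ly6c1 and Slco1a4 were at 0 in all 26 cells. Igfbp7 overlaps Polr2b on the opposite strand, so these few reads cannot be assigned to Igfbp7 with certainty.

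**Figure D4:**
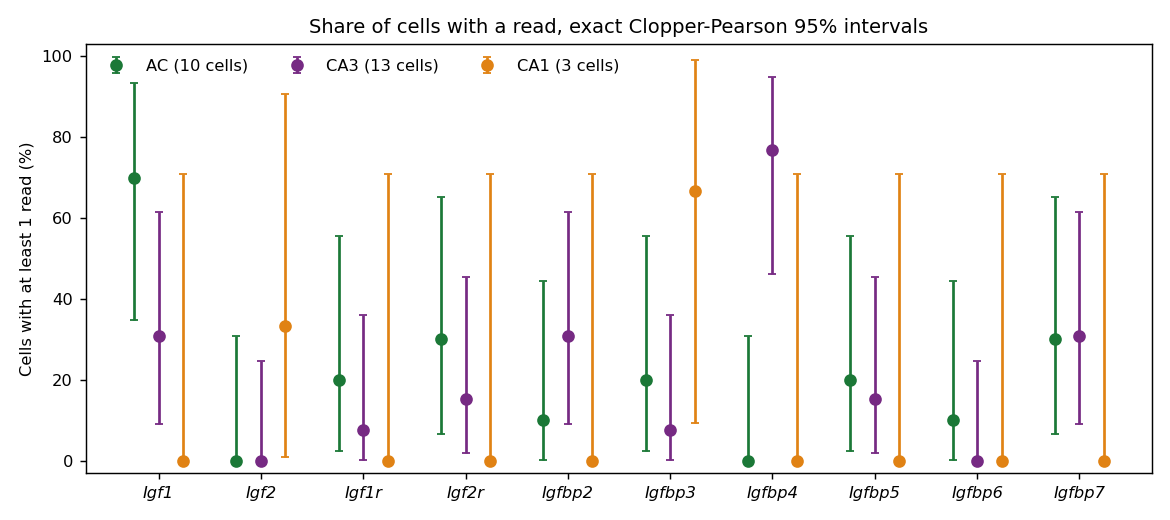
Share of listed cells with at least 1 read (percent) for each IGF system gene in AC (10 cells), CA3 (13 cells) and CA1 (3 cells), with exact Clopper-Pearson 95% intervals as bars. Shares in CA3 reach 76.9% for Igfbp4, which was chosen for its absence from the AC cells, shares in AC reach 70.0% for Igf1, and the intervals of CA1 span most of the axis.

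Per kilobase of exon, which allows levels to be set between genes, the binding proteins summed to 22.7 CPM per kb in AC, 92.8 in CA3 and 57.4 in CA1. Without Igfbp4, which was chosen for its absence from AC, the sum in CA3 was 11.7. The AC sum in turn was 3.82 without N44, so the order of AC and CA3 without Igfbp4 rests on 1 cell. The leading member differed, with Igfbp3 giving 85.0% in AC and 100% in CA1, and Igfbp4 giving 87.3% in CA3. The Igfbp3 reads in CA1 came almost wholly from N2X, and the CA1 sum without it was 0.174. At least 10 reads on any binding protein were found in 4 of 10 AC cells, 10 of 13 CA3 cells (5 without Igfbp4) and 1 of 3 CA1 cells. The ligands summed to 6.30 CPM per kb in AC and 3.30 in CA3, all of it Igf1, and to 0.0694 in CA1, all of it Igf2. The receptors summed to 3.59 CPM per kb in AC, with 76.0% from Igf2r, to 0.0813 in CA3 and to 0 in CA1. The AC sum was 1.06 without N8, which held nearly all Igf2r reads.

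Several binding proteins in the same cell, at 10 reads or more each, were found in 5 of 13 CA3 cells (N29, N30, N32, N33 and N34) and in 0 of 10 AC and 0 of 3 CA1 cells. Igfbp4, chosen for its absence from AC, was 1 of them in all 5 cells, and without it 1 CA3 cell, N33, held several. N33 held 3 of them, Igfbp2, Igfbp3 and Igfbp4. All 4 CA3 cells with Igfbp2 were among the 10 cells with Igfbp4. In N34 Igfbp2 made up 73.2% of the binding protein reads per length, and in the other 9 cells Igfbp4 led with 54.0 to 100%. In AC the 4 cells each held a different binding protein, Igfbp3 in N44, Igfbp6 in N46, Igfbp2 in N5 and Igfbp5 in N8.

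Set against all genes, the difference between AC and CA3 was large throughout. Of the 5964 genes read in 10 or more of the 23 cells, 63.4% differed by at least 1 in mean level (2-fold), 15.4% higher in AC and 48.1% lower in AC, with a median of -0.91. Of the 10 IGF system genes 2 were higher in AC (Igf1 and Igf1r), 2 were lower (Igfbp2 and Igfbp4) and 6 were within 2-fold, with a median of 0.37. After subtraction of the median of all genes, 7 were higher and 1, Igfbp4, was lower, where 58.9% of all genes differed, 29.3% higher and 29.6% lower. The subtraction shifts every gene equally, read or not. It took Igfbp7 from 0.24 to 1.15 and the unread Igf2 from 0 to 0.91. Only Igf1 and Igfbp4 were read in 10 or more of the cells and so belong to the 5964 genes, and Igfbp4 was chosen on this contrast. Igfbp4 ranked 5 from the lowest difference and Igf1 191 from the highest. Besides Igfbp4 8 more genes, 9 or 0.151% in all, were unread in the AC cells and read in 10 or more CA3 cells, namely Alcam, Cntnap4, Lhx6, Col25a1, Wif1, Flrt2, Ankrd34b and Klhl18.

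**Figure D5:**
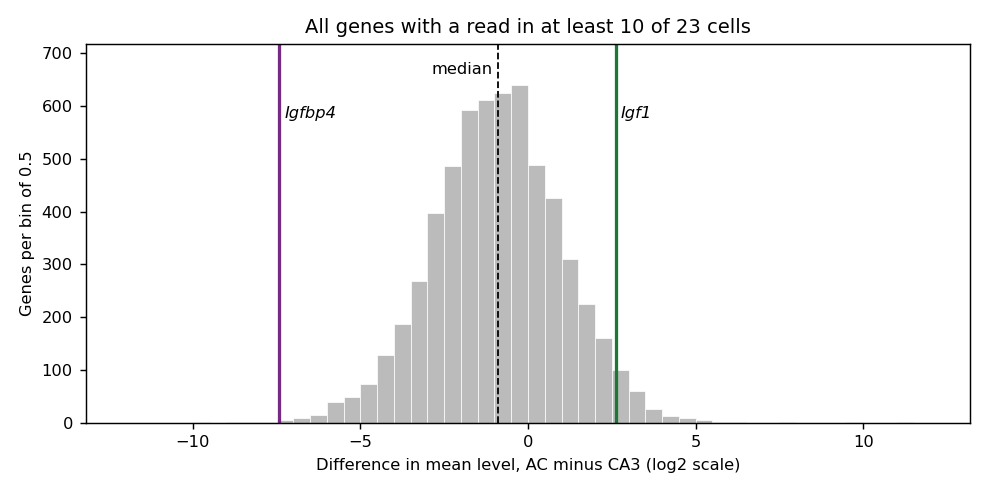
Number of genes (vertical axis) by difference in mean level, AC minus CA3 on the log2 scale, in bins of 0.5, for the 5964 genes read in 10 or more of the 23 cells. The dashed line marks the median of -0.91, and coloured lines mark Igfbp4 at -7.43 and Igf1 at 2.62, the IGF system genes that were read in enough cells.

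In CA1 only Igfbp3 and Igf2 were read. Against CA3, 1 of the 10 genes was higher in CA1 (Igfbp3) and 3 were lower (Igf1, Igfbp2 and Igfbp4), where 69.8% of 6597 genes differed by 2-fold, 29.6% higher and 40.2% lower. After subtraction of the median of all genes, -0.43, 2 were higher and 3 lower, where 69.2% differed, 35.5% higher and 33.6% lower. The gene added as higher was Igf2, which had 2 reads in CA1. Against AC, 1 was higher (Igfbp3) and 3 were lower (Igf1, Igf1r and Igf2r), where 68.5% of genes differed, 41.4% higher and 27.1% lower. After subtraction of the median of 0.46, 1 was higher and 6 were lower, where 67.8% differed, 34.5% higher and 33.3% lower. Only 2 of the 10 genes, Igf1 and Igfbp4, belong to the 6597. Igfbp2 (-0.75), Igfbp5 (-0.73) and Igfbp7 (-0.59), unread in CA1, passed 2-fold only through this subtraction. Of the calls against AC, that of Igf1r ended without N4 (-0.53), that of Igf2r without N8 (-0.25) and that of Igfbp3 without N2X (0.01). The comparisons between the 3 regions share cells and are not independent. With 3 cells, of which N1 has 601781 reads, CA1 is the least precise of the regions.

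The wider pathway was given by 55 genes in 7 lists, all of them in the table and 25 of them read in 10 or more of the 23 cells. Of these 25, 6 were higher in AC, 10 were lower and 9 were within 2-fold, with a median of -0.17, where 15.4% of all genes were higher and 48.1% lower, with a median of -0.91. Relative to the median of all genes 11 were higher and 8 lower, where 29.3% and 29.6% of all genes were. Among the adaptors, Irs2, an insulin receptor substrate, was higher in AC by 3.28 (6 of 10 and 5 of 13 cells, 119 against 11 CPM), as was the Ras exchange factor Sos1 by 2.55. Grb2, the adaptor that binds Sos1, was lower by 3.72. Of 5 PI3K, Akt and Foxo genes read in 10 or more cells 1 was higher in AC and 4 were lower, or 1 and 3 relative to the median of all genes. Among them the regulatory subunit Pik3r2 (-3.36), the kinase Akt1 (-2.71) and its substrate Gsk3b (-2.61) were lower in AC.

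Of 7 such mTOR and Tsc genes 3 were higher in AC, 1 was lower and 3 were within 2-fold, where 15.4% of all genes were higher and 48.1% lower. Relative to the median of all genes 5 were higher and 1 lower, where 29.3% and 29.6% of all genes were. Rheb, the GTPase that activates mTOR complex 1, was lower, with a difference of -2.60, and is named after its value was seen. Rptor, the scaffold of that complex, was 2.54 higher in AC and Tsc1, an inhibitor of that complex, 1.77 higher. Of 8 Ras and ERK genes 4 were lower in AC and 4 within 2-fold, where 48.1% of all genes were lower. Relative to the median of all genes 2 were higher and 3 lower, beside the same 29.3% and 29.6% of all genes. The insulin receptor gene Insr, whose product pairs with IGF1R, was read more widely than Igf1r, in 5 of 10 AC, 9 of 13 CA3 and 3 of 3 CA1 cells, at 89.7, 47.1 and 154 CPM. Its difference between AC and CA3 was 0.19.

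Of 7 genes for proteases of the binding proteins and their inhibitors, 1 was read in 10 or more of the 23 cells, the lysosomal protease gene Ctsd, with a difference of -0.17. Pappa, which encodes the IGFBP4 protease PAPP-A, had 1 read in 1 AC cell and 24 reads in 2 CA3 cells. Stc2, whose product stanniocalcin 2 inhibits PAPP-A, had 21 reads in 2 AC cells and 218 reads in 4 CA3 cells. Htra1, a secreted protease that cleaves binding proteins, was named after its values were seen. It had 2085 reads in the AC cell N44 and none in the other AC cells, 276 to 1683 reads in 8 of 13 CA3 cells, and 59 reads in the CA1 cell N6. The sums were 61.2 CPM in AC and 121 CPM in CA3, with a difference in mean level of -4.40. N44 was also the AC cell with 2054 Igfbp3 reads.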

How the data were processed

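Raw counts per gene symbol and cell were deposited by the authors in 1 table that had not been normalized. The methods of the study name Trimmomatic and Flexbar for trimming, STAR and Ensembl GRCm38 for alignment, HTSeq for counting and version 86 of the annotation for symbols, with identifiers of equal symbol averaged. The submitters' processing notes name featureCounts, so the counter is uncertain. A row that holds cell types was left out.

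Counts were divided by scran 1.30.0 size factors (R 4.3.3, pools of 10 and 20, minimum mean 1) over the 26 cells, and the level is log2(normalized count + 1). CPM is reads per 1000000 reads on genes, summed over the cells of a region. Depth is the total count per cell, 601781 to 7949918 reads. A region was taken as 1 sample, so values, SDs over cells and exact 95% intervals are given, with no test, and a difference of at least 1 in mean level is spoken of as higher or lower. A count of 0 is given the limit of 3 reads over the region, which covers the counting of reads only. Gene positions and exon lengths came from GENCODE vM21 (GRCm38) and promoters from RefSeq, and all 10 genes matched in both.

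The members, gene lists and cells were chosen with earlier results of these data known. The genes named are all 10 members, the pathway genes among the 5 largest differences in each direction of those read in at least 10 of 23 cells, Insr, Irs2, Pappa and Stc2, and the 5 genes most like Igfbp4 over 23 and over 13 cells. Of these pathway genes 2 are not reported here. The alternatives were library-size, TMM (edgeR 4.0.16) and poscounts (DESeq2 1.42.0) factors, pseudocounts of 10 and 0.1, a filter on genes, the ratio of mean CPM, subtraction of the median, all labelled cells, a limit of 10 reads and each cell left out. N4X in place of N4 was added after the data were seen. On simulated counts with 200 of 5964 genes changed, 200 were given the set direction and 198 were called, as were 6 of 5764 unchanged genes. The simulation changed only genes above the median mean. Its spread between cells was set in advance, without genes that are read in some cells and absent from others. It thus checks the calculation and does not measure how reliable the calls are in the real cells. The other steps used Python 3.11.15, numpy 2.4.6, pandas 2.3.3, scipy 1.17.1 and matplotlib 3.10.9.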

Additional observations from a re-analysis of the deposited data

Results flagged for a closer look

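Of 8 IGF system genes with reads in the 10 AC cells, 6 had 1 cell far above the others by Dixon's criterion, which chance alone meets in about 1 of 20 groups of measured values. In these genes most other cells were at 0, so the criterion reflects reads in 1 cell. The levels, as log2(normalized count + 1), were 9.82 for Igf1r in N4, 8.92 for Igf2r in N8, 7.50 for Igfbp2 in N5, 11.13 for Igfbp3 in N44, 6.21 for Igfbp5 in N8 and 4.89 for Igfbp6 in N46. The criterion was applied to groups of 4 to 10 cells, so CA3 and CA1 were not examined with it.

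Igfbp2 was also read in the 2 dentate gyrus columns, which enter no comparison, with 265 reads in all (947 CPM).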

How the results depend on the processing

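Leaving out 1 cell, which can move a mean only by part of its SD, still ended calls. Igf1r fell from 1.07 to 0.15 (AC against CA3, without N4), and Igfbp3 from 3.65 to 0.81 (CA1 against CA3) and from 2.86 to 0.01 (CA1 against AC), both without N2X. Igf2r turned from 0.64 to -0.23 (AC against CA3, without N8). Under the other alternatives 245 of the per-gene values stayed within the SD over cells, 18 moved past it and 0 reversed among those past 2-fold. The SD is wide, so this count says little about stability. Igf2r went from 0.64 to -1.05 over all labelled cells (AC against CA3) and still counted as within it. Igfbp4 ranged from -9.98 (pseudocount 0.1) to -4.11 (all labelled cells), and Igf1 from 1.22 (all labelled cells) to 3.88 (pseudocount 0.1). The median of all genes was -0.91 with scran factors, -0.93 with library size, -0.96 with TMM and -0.94 with poscounts.

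The counts of genes past 2-fold moved more. For AC against CA3 the 4 genes (2 higher, 2 lower in AC) became 2 (1 and 1) with a pseudocount of 10 and 2 (1 and 1) with the filter of 10 cells. They became 7 with the ratio of mean CPM, 5 of them higher, and 8 (7 and 1) after subtraction of the median. Over all labelled cells 1 was higher, and 1 to 3 were higher when 1 cell was left out (1 without N4 or N7, 3 without N33). For CA1 against CA3 the 4 genes (1 higher, 3 lower in CA1) became 1 (0 and 1) with the filter, and 2 were higher with a pseudocount of 0.1, after subtraction of the median and, of a range of 1 to 2 with 1 cell left out, without N1. Without N2X the 1 gene higher was Igf2 (1.30), with 2 reads in all, and no longer Igfbp3. For CA1 against AC the 4 genes (1 and 3) became 2 with a pseudocount of 10, 1 of them lower, 8 (2 and 6) with a pseudocount of 0.1 and 0 (0 and 0) with the filter. With the ratio of mean CPM 0 were higher and 5 lower, and after subtraction of the median 7 differed, 6 of them lower. With 1 cell left out 1 to 2 were higher (2 without N1) and 2 to 3 lower (2 without N4 or N8), 3 to 5 in all. Of the 2 genes read in CA1, 1 had at least 10 reads in a cell. The 6 pathway genes higher in AC became 11 after subtraction of the median. The filter tests fewer genes, and subtraction of the median shifts all genes by the same amount, read or not. The cause of the other moves was not tested. No paired analysis was possible because the labels give no replicate number that regions share and no test was made.

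With 10, 13 and 3 cells of unstated mice, differences between regions cannot be told apart from differences between mice or slices. A gene read in 1 to 4 cells has a regional sum that rests on those cells. Depth limits what a 0 means, most in CA1.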

Other observations

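Igf2, unread in the listed AC and CA3 cells, had 10 reads in N52 and 1 in N50, both labelled AC and not among the listed cells, and N52 had only 40934 reads in all. Igfbp3 had 47 reads in N14, Igfbp6 24 and Igfbp7 14 in N15, and Igf2r 46 in N18. The 18 AC and CA3 columns outside the listed cells had 40934 to 6235022 reads on 633 to 6209 genes.

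N4 and N4X, taken as libraries of 1 cell from their correlation, differed in a gene near the detection limit, with 0 and 2 reads on Igfbp3, and both held Igfbp1, with 426 and 678 reads.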
